A study of Mus musculus with 242 samples.

Results

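The pentose phosphate pathway and the cytosolic enzymes that supply NADPH were followed in mouse liver as a set of 9 genes, chosen by name: G6pdx, H6pd, Pgd, Tkt, Taldo1, Rpia, Rpe, Me1 and Idh1. Of these 9, 8 had a probe set in the array annotation used, out of 18193 genes measured. G6pdx was not matched to a probe set and was not analysed here. Where a gene had several probe sets, the brightest on average was taken.

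The pathway runs beside glycolysis. Its oxidative arm takes glucose 6-phosphate to ribulose 5-phosphate and makes NADPH, and its non-oxidative arm returns the sugars to glycolysis or yields ribose for nucleotides. In liver, NADPH is spent on fatty acid and cholesterol synthesis, on cytochrome P450 reactions and on the reduction of glutathione and thioredoxin. Several genes of the set are known targets of NRF2, a transcription factor activated by electrophiles and oxidants, and Me1 is also known as a lipogenic gene.

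Liver RNA of female B6C3F1 mice was measured on 242 Affymetrix Mouse430_2 arrays, 1 per mouse by their titles, after 13 weeks of exposure, at an age of 18 weeks. The mice formed 46 groups given 1 of 26 chemicals and 14 control groups given air, corn oil, distilled water or plain rodent chow, with 3 to 5 mice per group. For 5 chemicals there were 5 doses and for 21 a single dose. The groups described most closely received malathion (14800 ppm in feed), 2,3-benzofuran (240 mg/kg by gavage in corn oil), 1,5-naphthalenediamine (2000 ppm in feed), N-(1-naphthyl)ethylenediamine dihydrochloride (2000 ppm in feed), pentachloronitrobenzene (8187 ppm in feed), 1,4-dichlorobenzene (100, 300, 400, 500 and 600 mg/kg by gavage in corn oil) and naphthalene (0.5, 3, 10, 20 and 30 ppm by inhalation). These doses are those of the dose labels, and the titles of the malathion, 2,3-benzofuran and pentachloronitrobenzene arrays carry another number in the dose's place. In the air control set ACO1, 2 arrays of different title carry the same animal number. Gavage and inhalation were given on 5 days a week, inhalation for 6 hours a day, and feed on 7 days.

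Each treated group was compared with controls of the same vehicle within 1 of 4 runs, named here A to D after the run codes in the labels. Values are log2 of the signal plus 17.3 of a mouse's array, and ± gives the standard error of a difference. A gene was called where its limma p, adjusted by Benjamini-Hochberg across the 18193 genes, was under 0.05 and its fold was 1.5 or more. All 7 measured hepatocyte markers lay above the array's median gene on every array. So did 6 of 8 macrophage, 2 of 6 stellate and 1 of 3 erythroid markers. The same held for 0 of 7 lymphocyte, 0 of 4 bile duct and 0 of 3 pancreas markers. It also held for 0 of 4 neutrophil, 0 of 4 adipose and 0 of 4 cycling markers. RNA integrity numbers, a scale of RNA intactness, ran from 4.7 to 7.8 in run A and from 7.1 to 9.4 in the others. The array of 1,5-naphthalenediamine replicate 2 and that of vanadium pentoxide replicate 4 had been deposited at trimmed means of 84.53 and 148.4 in place of 500 and were rescaled.

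Promoter windows are shown for the 3 members that passed the test in any treated group, Pgd, Tkt and Me1, since these are the genes the comparisons turn on. Each window, from RefSeq on GRCm38.p6, runs from 250 bases before to 50 bases after an annotated start and is written 5′ to 3′ along the gene's strand. Capitals mark a match to TGACNNNGC, the core of the antioxidant response element that NRF2 binds, on either strand.
Me1 (chr9:86695865-86696164, minus strand, the more upstream of 2 annotated starts): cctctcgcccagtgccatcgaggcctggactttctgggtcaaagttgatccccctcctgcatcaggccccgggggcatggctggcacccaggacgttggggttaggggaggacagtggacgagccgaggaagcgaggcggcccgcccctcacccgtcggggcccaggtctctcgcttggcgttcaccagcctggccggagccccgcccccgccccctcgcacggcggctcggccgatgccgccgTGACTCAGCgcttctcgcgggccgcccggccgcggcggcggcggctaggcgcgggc
Pgd (chr4:149166033-149166332, minus strand, the more downstream of 2 annotated starts): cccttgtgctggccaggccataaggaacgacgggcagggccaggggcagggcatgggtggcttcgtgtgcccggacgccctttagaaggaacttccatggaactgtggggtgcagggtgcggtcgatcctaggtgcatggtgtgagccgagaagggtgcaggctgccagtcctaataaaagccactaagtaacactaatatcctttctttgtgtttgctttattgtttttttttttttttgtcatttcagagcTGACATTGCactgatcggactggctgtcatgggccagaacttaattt
Tkt (chr14:30548881-30549180, plus strand): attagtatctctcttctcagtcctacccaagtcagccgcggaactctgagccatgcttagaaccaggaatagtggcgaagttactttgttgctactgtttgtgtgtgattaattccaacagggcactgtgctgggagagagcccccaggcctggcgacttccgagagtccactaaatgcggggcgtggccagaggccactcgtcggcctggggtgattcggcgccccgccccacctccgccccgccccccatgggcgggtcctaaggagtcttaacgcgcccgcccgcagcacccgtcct

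The Me1 window held 1 match, TGACTCAGC, beginning 6 bases before the start, and the Pgd window held 1 match, TGACATTGC, beginning at base 4 after the start. The Pgd match thus lies downstream of both annotated Pgd starts. It follows a t-rich stretch ending in cag, which resembles the end of an intron. The match may therefore lie in an exon within the gene and not in a promoter, and this was not tested. The 8 measured members had 11 windows, and 2 of the 11 held this core, beside 12.4% of all 32851 windows. For Me1 and Pgd the window shown is the one that holds the match. The other annotated windows of Me1 (chr9:86687228-86687527) and Pgd (chr4:149166656-149166955, the more upstream start) are not printed and held no match. CACGTG, the E-box, was in 0 of the 11 windows and in 7.15% of all windows. TCACNCCAC, a core of the sterol response element, was in 0 of the 11 and in 1.24% of all. These are matches of letters and show no binding.

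Over the 46 treated groups, 17 of 368 member tests passed, in 10 groups and 6 chemicals, and all 17 were rises. Over all genes, 0.751% of such tests passed, with 2768 rises and 3519 falls. Tkt rose in 7 groups, Pgd in 6 and Me1 in 4, and Pgd and Tkt rose together in 5. The 10 groups used 5 control sets, so calls that share controls are not independent repeats. H6pd, Taldo1, Rpia, Rpe and Idh1 passed in 0 of 46 groups each. In 16 of the 17 calls no treated array overlapped the controls, the exception being Tkt in malathion. A call already requires a difference large against the spread, and the share of non-overlap over all genes was not computed. Remarks on overlap, here and below, therefore describe the values and add no support to a call. Being called in at least 4 groups was shared by 1.40% of all genes, and being called in at least 7 by 0.286%.

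**Figure D1:**
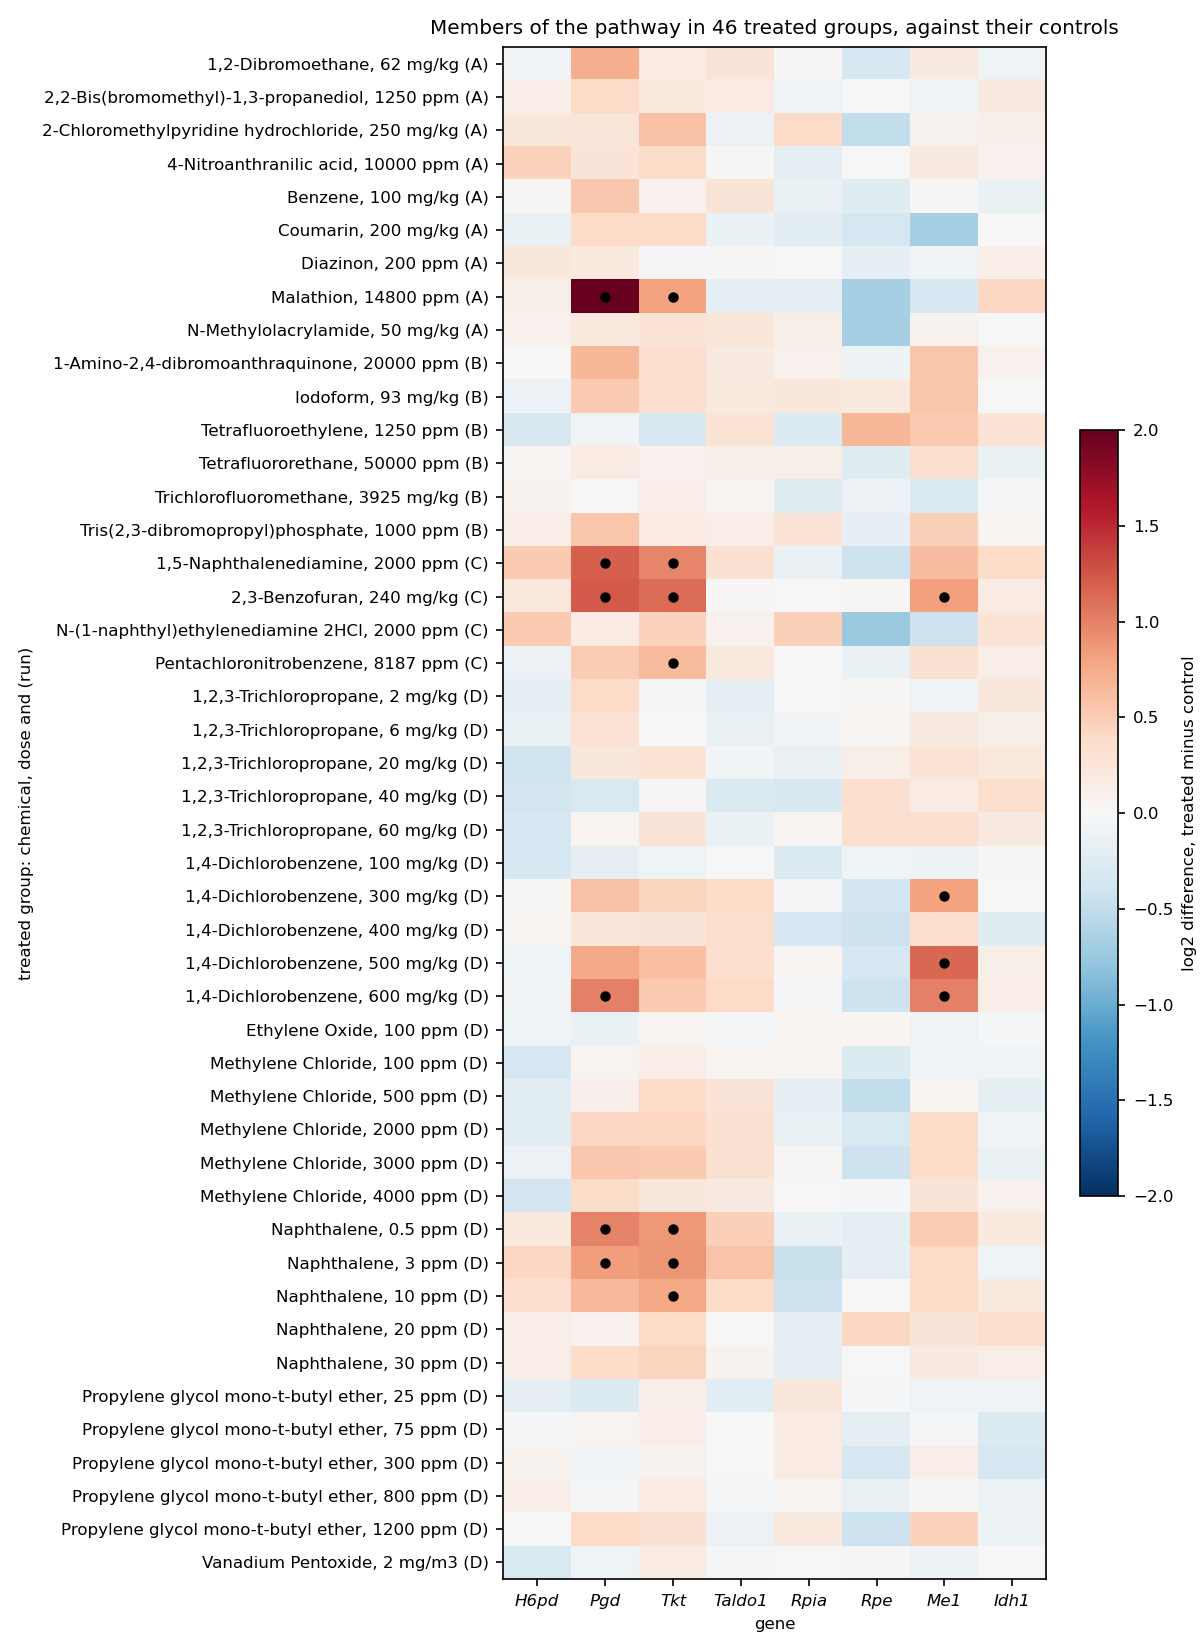
Differences of the 8 measured members in 46 treated groups, with genes across, groups down (chemical, dose and run in brackets) and colour giving the log2 difference from controls. Black dots mark the 17 calls, which lie in the columns of Pgd, Tkt and Me1.

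Pgd encodes 6-phosphogluconate dehydrogenase, the NADPH-making enzyme that closes the oxidative arm. It was measured by probe set 1436771_x_at, with control group means between 10.54 and 11.66. Its value was higher than in controls in 38 of 46 groups, with a median difference of 0.32. Tkt encodes transketolase, which with transaldolase shuttles carbon in the non-oxidative arm. It was measured by 1439443_x_at, and was higher by value in 42 of 46 groups, with a median difference of 0.27. Me1 encodes cytosolic malic enzyme, which makes NADPH from malate. It was measured by 1430307_a_at, was higher by value in 33 of 46 groups, and ranged from -0.67 in coumarin to 1.15 in 1,4-dichlorobenzene at 500 mg/kg. Over all genes and groups, 48.1% of differences were above 0.

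Malathion, an organophosphate insecticide, gave the largest difference of any member in any group. Pgd was 12.43, 12.44, 12.71, 12.89 and 11.43 in the 5 malathion mice and 10.67, 10.12, 10.58 and 10.79 in the 4 chow controls. Every malathion mouse was above every control, and replicate 5 was the lowest of the 5. The fitted difference was 1.99 ± 0.32, a 3.96-fold rise (limma adjusted p = 4.3e-05), and 4.37% of all genes were called in this comparison.

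Tkt was 14.64, 14.67, 14.05, 13.82 and 13.96 in malathion and 13.34, 13.22, 13.74 and 13.96 in controls, so the groups overlapped. It rose by 0.80 ± 0.19 (limma adjusted p = 0.0048) with the run code as a block. Me1 moved the other way by value, at -0.35 ± 0.35 (limma adjusted p = 0.70), and Idh1, the cytosolic NADP-dependent isocitrate dehydrogenase, was at 0.42 ± 0.15 (limma adjusted p = 0.11) with no overlap.

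Run A held 2 run codes. Within the code of 2 malathion and 3 control arrays, Pgd differed by 1.75 and Tkt by 0.98. Within the code of 3 malathion arrays and 1 control array, Pgd differed by 2.23 and Tkt by 0.72. Without the block Tkt lost its call (0.66, limma adjusted p = 0.070). RNA integrity was 4.7 to 6.5 in the 4 malathion mice that have a number and 6.7 to 7.2 in their controls, without overlap. With that number as a covariate Pgd was at 1.35 (limma adjusted p = 0.078) and Tkt at 0.68 (limma adjusted p = 0.22). Without the 2 arrays under 5, Pgd was at 2.02 (limma adjusted p = 0.00021) and Tkt at 0.92 (limma adjusted p = 0.0054). Both this fit and the covariate were chosen after seeing the data. The malathion arrays left that have a number reached at most 6.5, still below the controls' 6.7 to 7.2. Malathion and RNA integrity can therefore not be told apart by this fit.

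Around these members in malathion, 16 of 19 measured NRF2 targets outside the set rose and 0 fell, with a median of 1.46 beside -0.03 over all genes. They included Abcc4, an export pump (17.3-fold, limma adjusted p = 5.9e-13), and Ugdh, which makes UDP-glucuronate (6.41-fold, limma adjusted p = 9.8e-10). Of 12 NADPH-using enzymes 6 rose, among them Txnrd1, thioredoxin reductase (2.10-fold, limma adjusted p = 1.1e-05), Nqo1, a quinone reductase (2.85-fold, limma adjusted p = 1.6e-05), and Gsr, glutathione reductase (2.42-fold, limma adjusted p = 2e-05). Nqo1, Txnrd1 and Gsr stand in both lists.

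Of 16 lipogenic genes 0 rose and 3 fell in malathion, and the list's median was -0.08. Acacb, an acetyl-CoA carboxylase, fell 5.56-fold (limma adjusted p = 5.3e-05). Pklr, liver pyruvate kinase, fell 1.99-fold (limma adjusted p = 0.015). Elovl5, a fatty acid elongase, fell 1.58-fold (limma adjusted p = 0.026). Among 10 other pentose phosphate genes 1 rose, Pgm2, a phosphopentomutase (2.25-fold, limma adjusted p = 0.00079), and 1 fell, Prps2, a phosphoribosyl pyrophosphate synthetase (2.51-fold, limma adjusted p = 0.0040).

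2,3-Benzofuran was the only group in which Pgd, Tkt and Me1 were all called, where 3.28% of all genes were called. Pgd was 12.38, 12.26 and 12.20 in treated mice and 11.05, 10.87 and 11.23 in corn oil controls. Tkt was 13.97, 14.00 and 14.05 against 13.01, 12.73 and 12.92. Me1 was 13.34, 13.51 and 13.70 against 12.73, 12.50 and 12.86. No treated mouse overlapped a control in any of the 3 genes. The rises were 1.23 ± 0.13 for Pgd (2.35-fold, limma adjusted p = 0.00021), 1.12 ± 0.12 for Tkt (2.17-fold, limma adjusted p = 0.00018) and 0.82 ± 0.20 for Me1 (1.77-fold, limma adjusted p = 0.033). The Me1 call was lost when any 1 of its own 6 arrays was left out, with differences of 0.73 to 0.91.

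In the same mice 13 of 19 NRF2 targets rose, with a median of 1.28 beside -0.12 over all genes, and 0 fell. Abcc4 rose 15.9-fold (limma adjusted p = 6.7e-06) and Ephx1, microsomal epoxide hydrolase, 4.25-fold (limma adjusted p = 1.6e-05). Of 12 NADPH users 6 rose, among them the carbonyl reductases Cbr3 (22.6-fold, limma adjusted p = 0.00071) and Cbr1 (3.31-fold, limma adjusted p = 1.8e-05) and the biliverdin reductase Blvrb (2.64-fold, limma adjusted p = 3e-05). Of 16 lipogenic genes 0 were called, with a median of -0.32. Of 13 other NADP-reducing genes 1 rose, Mthfd1l, a mitochondrial folate enzyme (2.87-fold, limma adjusted p = 0.025). The summed marker levels lay below the controls without overlap for 9 of 10 marker lists, macrophage markers summing to 11.3 to 14.2 against 16.2 to 21.2 and hepatocyte markers to 321 to 328 against 334 to 370, in units of 1000 signal. Of these markers Csf1r, a macrophage receptor (1.57-fold, limma adjusted p = 0.024), Ptprc, the leukocyte antigen CD45 (1.83-fold, limma adjusted p = 0.011), and Birc5, a mitotic gene (7.11-fold, limma adjusted p = 0.0044), fell. Their part in the members' rises was not tested.

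The 2 naphthyl amines, both at 2000 ppm in feed and set against the same 3 chow controls, differed in Pgd and Me1. Pgd was 11.73, 12.08 and 12.09 with 1,5-naphthalenediamine, 10.96, 11.05 and 10.76 with N-(1-naphthyl)ethylenediamine dihydrochloride, and 10.77, 10.76 and 10.78 in controls. Me1 was 12.98, 12.83 and 13.34 with the first, 11.82, 12.19 and 12.06 with the other, and 12.67, 12.19 and 12.44 in controls. Tkt was 13.60, 13.84 and 13.80, then 13.42, 13.17 and 13.11, and 12.80, 12.84 and 12.70 in controls. All mice on 1,5-naphthalenediamine were above all mice on the other amine in the 3 genes. The first carries an amino group on each of its aromatic rings, and the other carries an aminoethylamino chain on 1 ring.

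The direct difference between the amines was 1.04 for Pgd (95% interval 0.76 to 1.33, limma adjusted p = 0.0019) and 1.03 for Me1 (0.61 to 1.45, limma adjusted p = 0.023), where 0.923% of all genes were called. It was 0.51 for Tkt (0.25 to 0.77, limma adjusted p = 0.065), which missed the threshold. The intervals were -0.42 to 0.42 for H6pd, -0.04 to 0.47 for Taldo1, -1.12 to -0.08 for Rpia, -0.25 to 0.88 for Rpe and -0.25 to 0.43 for Idh1, none with an adjusted p under 0.05. The Me1 call was lost without NAPD replicate 1 or 3 or any 1 of the 3 NEDD arrays, at 0.88 to 1.11 (NAPD and NEDD being the 2 amines in this order). This was 1 pair of compounds, and no other pair was compared.

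Against controls, 1,5-naphthalenediamine raised Pgd by 1.20 ± 0.13 (2.30-fold, limma adjusted p = 0.00034) and Tkt by 0.97 ± 0.12 (1.96-fold, limma adjusted p = 0.00065), where 3.40% of all genes were called. Me1 was at 0.62 ± 0.20 (limma adjusted p = 0.092). Replicate 2 is the rescaled array. With values as deposited Pgd was at 0.35 and Tkt at 0.12, and without that array they were at 1.14 (limma adjusted p = 0.0024) and 0.92 (limma adjusted p = 0.0049). For N-(1-naphthyl)ethylenediamine dihydrochloride limma called 0 of 8 members, H6pd, Tkt and Rpe having an unadjusted p under 0.05, where 0.693% of all genes were called and 3165 of 18193 had such an unadjusted p. Its Pgd difference was 0.16 ± 0.13, that of Tkt 0.46 ± 0.12 (limma adjusted p = 0.085) and that of Me1 -0.41 ± 0.20. Its RNA integrity of 7.7 to 8.1 lay below the controls' 8.8 to 9.1. Its log2 ratio of Gapdh 3′ to 5′ probe sets, a measure of RNA breakdown, was -0.06 to 0.16, above the controls' -0.33 to -0.22. With either measure as a covariate no member was called for this amine against controls. The part of RNA quality in the difference between the amines was not tested.

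With 1,5-naphthalenediamine 13 of 19 NRF2 targets rose (median 1.12), and with the other amine 0 of 19 (median 0.20), beside -0.12 and -0.05 over all genes. Between the amines 9 of the 19 were higher with 1,5-naphthalenediamine. Among them were Ugdh (4.92-fold, limma adjusted p = 0.00017), Ephx1 (2.76-fold, limma adjusted p = 0.00090) and Gstm3, a glutathione transferase (4.89-fold, limma adjusted p = 0.0019). Of 12 NADPH users 3 were higher: Blvrb (1.88-fold, limma adjusted p = 0.0026), Cbr1 (1.76-fold, limma adjusted p = 0.015) and Txnrd1 (1.76-fold, limma adjusted p = 0.022). With the other amine Me2, a mitochondrial malic enzyme, fell 3.80-fold against controls (limma adjusted p = 0.042). Hepatocyte markers summed to 342 to 372 with 1,5-naphthalenediamine and 401 to 461 with the other amine, against 374 to 394 in controls, in units of 1000 signal. Macrophage markers summed to 9.93 to 14 and 14.2 to 16.9 against 15.5 to 19.2. With 1,5-naphthalenediamine the lymphocyte, adipose, bile duct, stellate and pancreas sums also lay below the controls, and Ptprc (1.77-fold, limma adjusted p = 0.016) and Retn, an adipose gene (4.80-fold, limma adjusted p = 0.040), fell. With the other amine the erythroid sum lay above the controls and the adipose, bile duct and cycling sums below. The part of these markers in the differences was not tested.

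Pentachloronitrobenzene, a fungicide, raised Tkt by 0.64 ± 0.12 (1.56-fold, limma adjusted p = 0.035), and 0.445% of all genes were called. Tkt was 13.45, 13.49 and 13.30 in treated mice and 12.80, 12.84 and 12.70 in controls, without overlap. Pgd was at 0.50 ± 0.13 (limma adjusted p = 0.16), also without overlap. The Tkt call was lost without any 1 of its 6 arrays, and the next brightest Tkt probe set, 1451015_at, differed by 0.24. The log2 ratio of Gapdh 3′ to 5′ probe sets, a measure of RNA breakdown, was -0.40 to -0.38 in treated mice and -0.33 to -0.22 in controls, and with it as a covariate Tkt was at 0.64 and no longer called (limma adjusted p = 0.058). Lymphocyte marker sums (1.01 to 1.13 against 1.22 to 1.37, in units of 1000 signal) and bile duct sums (0.370 to 0.452 against 0.460 to 0.633) lay below the controls, and their part was not tested. Of 19 NRF2 targets 3 rose, Gstm3 (4.23-fold, limma adjusted p = 0.0088), Gstm1 (1.63-fold, limma adjusted p = 0.021) and Abcc4 (2.80-fold, limma adjusted p = 0.045).

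**Figure D2:**
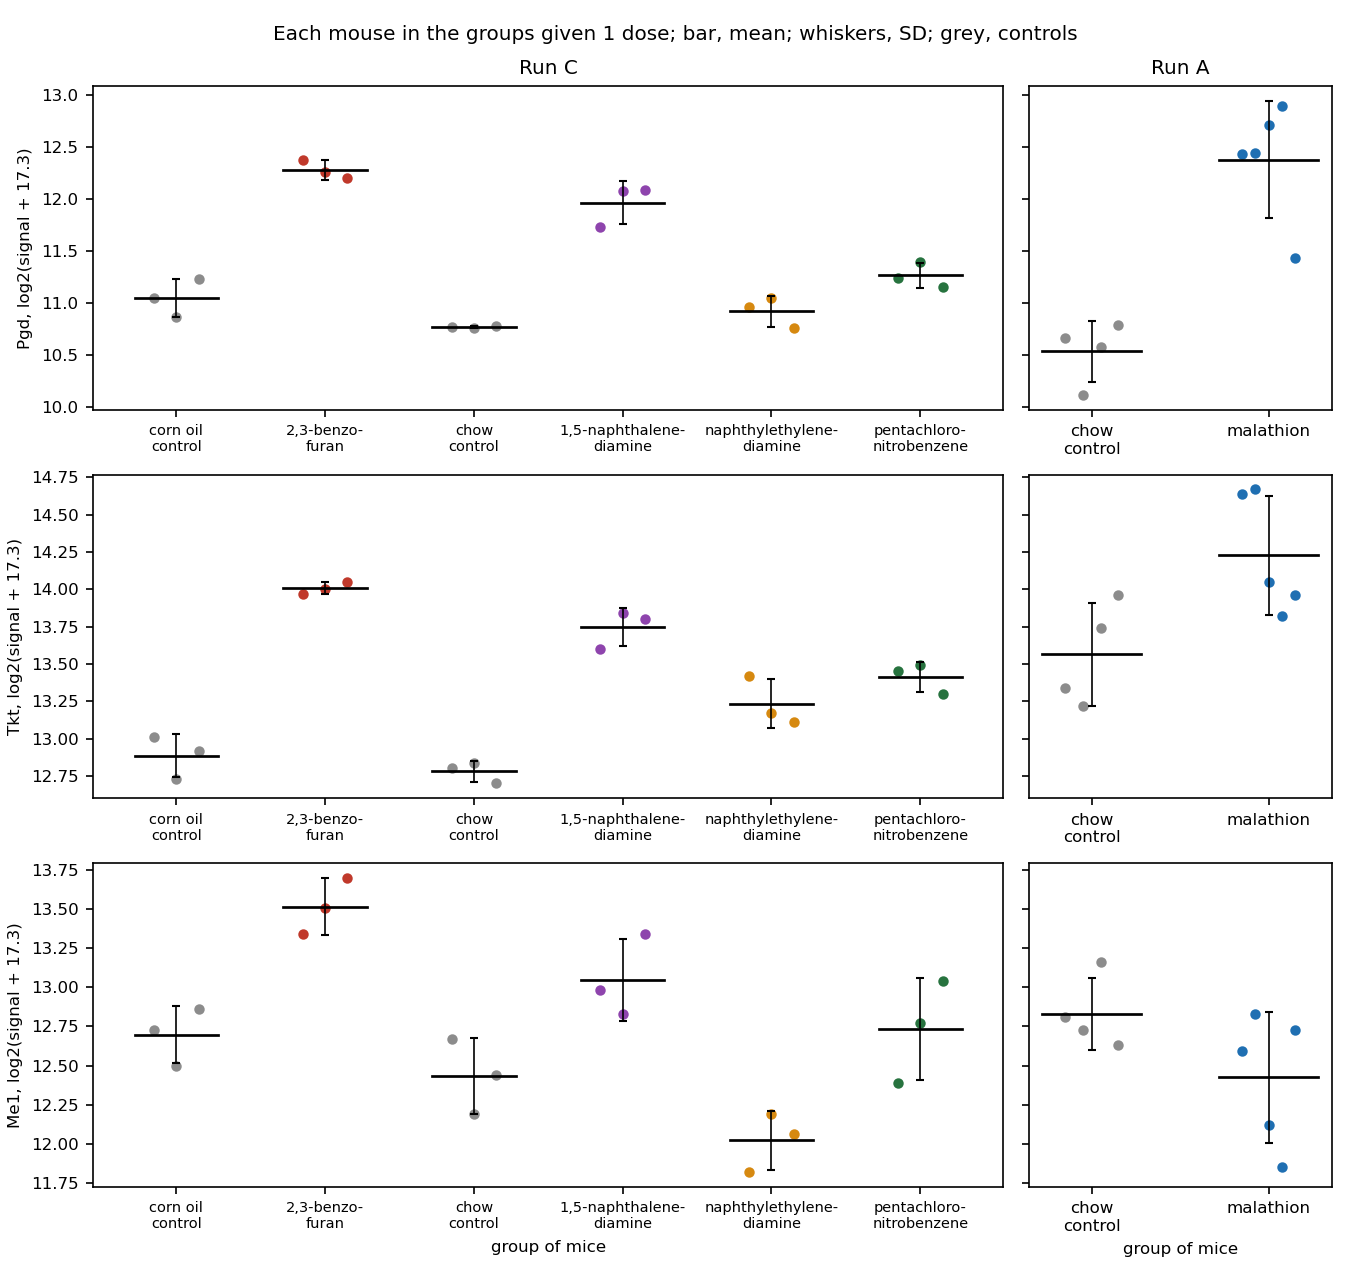
Log2(signal + 17.3) of Pgd, Tkt and Me1 for each mouse, in run C (left) and for malathion in run A (right), with grey points for controls, bars for means and whiskers for the SD. Mice on 2,3-benzofuran and 1,5-naphthalenediamine sit above their controls in all 3 genes, while malathion mice do so in Pgd but overlap them in Tkt and Me1.

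1,4-Dichlorobenzene, a mothball ingredient, raised Me1 and Pgd over its 5 doses. Me1 was 12.87, 13.20, 12.95, 13.67 and 13.18 in the corn oil controls and 14.18, 14.04, 14.68 and 13.82 at 600 mg/kg. Group means were 13.17 in controls and 13.07, 13.98, 13.52, 14.33 and 14.18 at 100, 300, 400, 500 and 600 mg/kg. The dose order was broken at 400 mg/kg, which lay below 300 mg/kg. Me1 was called at 300 mg/kg (0.80 ± 0.17, limma adjusted p = 0.0011), 500 mg/kg (1.15 ± 0.17, limma adjusted p = 3.4e-07) and 600 mg/kg (1.01 ± 0.17, limma adjusted p = 1.2e-05), where 2.00%, 0.803% and 0.704% of all genes were called. At 100 and 400 mg/kg it was at -0.10 ± 0.17 and 0.34 ± 0.17, where 0.0715% and 0.462% of all genes were called.

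Pgd followed a like course in 1,4-dichlorobenzene. It was 10.70, 11.05, 10.70, 11.14 and 11.11 in controls and 12.13, 12.11, 12.12 and 11.41 at 600 mg/kg, with replicate 4 apart from the other 3. Its means were 10.75, 11.53, 11.19, 11.69 and 11.94 from the lowest to the highest dose against 10.94 in controls. The rise was called at 600 mg/kg alone (1.00 ± 0.24, limma adjusted p = 0.011), and was lost when replicate 1, 2 or 3 of that dose was left out (0.94 each). At 300 mg/kg 3 mice were at 11.65 to 11.99 and replicate 1 was at 10.68, just below the lowest control.

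As a trend over equally spaced ranks of control and the 5 doses, Me1 rose by a fitted 1.19 ± 0.14 from control to 600 mg/kg (limma adjusted p = 2.5e-10). By the same fit Pgd rose by 1.07 ± 0.20 (limma adjusted p = 0.00021) and Tkt by 0.65 ± 0.16 (limma adjusted p = 0.0078), where 1.12% of all genes were called. Over the 5 doses alone Me1 was at 1.03 (limma adjusted p = 2.4e-06), Pgd at 1.02 (limma adjusted p = 0.0038) and Tkt at 0.55, not called (limma adjusted p = 0.092). The share of all genes called over the doses alone was not counted. Taldo1, transaldolase, had a trend of 0.43 ± 0.12 (limma adjusted p = 0.024), short of the fold threshold at 1.35-fold. H6pd, Rpia and Idh1 had trends of 0.06 ± 0.18, 0.09 ± 0.15 and 0.11 ± 0.12. Rpe was at -0.41 ± 0.19 (limma adjusted p = 0.30).

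Of the other 4 dose series, 0 of 32 member trends were called, 7 of the 32 having an unadjusted p under 0.05, where 1.11% of all genes' trends were called. Per series, 1655 (naphthalene) to 3720 (methylene chloride) of the 18193 genes had such an unadjusted p. In methylene chloride the trends were 0.51 ± 0.20 for Pgd (limma adjusted p = 0.11), 0.34 ± 0.16 for Tkt (limma adjusted p = 0.19) and 0.41 ± 0.14 for Me1 (limma adjusted p = 0.057). In propylene glycol mono-t-butyl ether Me1 was at 0.39 ± 0.14 (limma adjusted p = 0.28), and in 1,2,3-trichloropropane at 0.36 ± 0.14 (limma adjusted p = 0.23).

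The Gapdh 3′ to 5′ log2 ratio lay below the controls (-0.41 to -0.12) without overlap at 100, 300, 400 and 500 mg/kg, at -0.59 to -0.48 over these doses, and overlapped them at 600 mg/kg. With this ratio as a covariate every member call of 1,4-dichlorobenzene stood, Me1 at 0.71, 1.04 and 1.00 and Pgd at 1.00, and so did the 3 trend calls. Bile duct and stellate marker sums lay below the controls at 100 and 400 mg/kg, where no member was called. At 300 mg/kg Krt19, a bile duct keratin, fell 2.90-fold (limma adjusted p = 0.036), and its part in the Me1 rise was not tested.

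NRF2 targets rose with 1,4-dichlorobenzene at 300, 400, 500 and 600 mg/kg in 10, 8, 10 and 10 of 19, and in 0 of 19 at 100 mg/kg. In the trend 10 of 19 rose, with a median of 0.71 beside 0.00 over all genes. They included Gstm4 (3.63-fold, limma adjusted p = 1.1e-21), Gstm3 (8.82-fold, limma adjusted p = 2.1e-20) and Abcc4 (8.42-fold, limma adjusted p = 1.4e-18). Of 12 NADPH users 4 rose in the trend: Cbr3 (6.45-fold, limma adjusted p = 6.4e-12), Blvrb (1.92-fold, limma adjusted p = 4.7e-10), Cbr1 (1.69-fold, limma adjusted p = 3.8e-09) and Gsr (1.64-fold, limma adjusted p = 1.6e-07). Of 16 lipogenic genes 1 rose, Acacb (2.13-fold, limma adjusted p = 0.00093), and the list's median was 0.51. None of 13 other NADP-reducing genes and none of 10 other pentose phosphate genes was called in the trend, with medians of 0.05 and 0.18.

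Naphthalene differed in shape, with the calls at the low doses. Pgd was 10.48, 11.22, 10.90, 11.37 and 11.71 in air controls, and 12.47, 12.34, 11.96 and 11.76 at 0.5 ppm. At 30 ppm it was 11.58, 11.16, 11.76 and 11.47. The 0.5 ppm mice lay above every control and the 30 ppm mice overlapped them. Pgd rose at 0.5 ppm (0.99 ± 0.24, 1.99-fold, limma adjusted p = 0.0060) and 3 ppm (0.83 ± 0.24, 1.78-fold, limma adjusted p = 0.017), where 2.49% and 4.14% of all genes were called. At 10, 20 and 30 ppm it was at 0.65, 0.09 and 0.36.

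Tkt was 13.35, 14.15, 13.90, 13.99 and 14.38 in these controls, 14.75, 15.07, 14.53 and 14.92 at 0.5 ppm, and 14.24, 14.32, 14.55 and 14.45 at 30 ppm. It rose at 0.5 ppm (0.86 ± 0.18, limma adjusted p = 0.0020), 3 ppm (0.88 ± 0.18, limma adjusted p = 0.0012) and 10 ppm (0.77 ± 0.18, limma adjusted p = 0.018, where 0.687% of all genes were called). At 20 and 30 ppm Tkt was at 0.38 and 0.44, and 0.132% and 0% of all genes were called. The unadjusted p at 30 ppm was under 0.05 in 825 genes. Tkt's probe set 1451015_at was at 0.56, 0.45 and 0.36 over the 3 low doses.

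Taldo1 had an adjusted p under 0.05 at 0.5 ppm (0.48 ± 0.14, limma adjusted p = 0.021) and 3 ppm (0.57 ± 0.14, limma adjusted p = 0.0044), at 1.40-fold and 1.49-fold and so just under the fold threshold. At 3 ppm its 4 mice, 12.90, 13.19, 13.08 and 13.06, were above all controls, 12.25 to 12.86. Me1 was above all controls at 0.5, 3, 10 and 20 ppm by 0.50, 0.40, 0.36 and 0.26, with limma adjusted p of 0.054, 0.11, 0.30 and 0.71. Over the 5 naphthalene doses alone, Pgd fell by 0.81 ± 0.22 from 0.5 to 30 ppm (limma adjusted p = 0.010). The share of all genes called in this trend was not counted, so the fall is not read as particular to the members. Taldo1 and Tkt had trends of -0.56 ± 0.13 (limma adjusted p = 0.0015) and -0.54 ± 0.17 (limma adjusted p = 0.027), under the fold threshold at 1.47-fold and 1.45-fold. With the controls at dose 0 included, the trends of Pgd and Tkt were -0.16 ± 0.20 and 0.09 ± 0.16.

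Control replicate 1 was the lowest mouse of its set in Pgd and Tkt. Without it Pgd was no longer called at 0.5 ppm (0.83, limma adjusted p = 0.055) or 3 ppm (0.67, limma adjusted p = 0.12), nor Tkt at 10 ppm (0.61, limma adjusted p = 0.12). Against the other 2 air control sets together, a comparison chosen after seeing the data, all 5 calls stood. Pgd was then at 1.06 and 0.90 and Tkt at 0.86, 0.87 and 0.76. RNA integrity was 9.1 to 9.3 at 0.5 (3 of 4 mice with a number), 3 and 10 ppm and 8.5 to 8.9 in the controls, without overlap, and 8.4 to 8.7 at 20 and 30 ppm. With that number as a covariate, Pgd at 0.5 ppm stayed called (1.12, limma adjusted p = 0.047). The other 4 did not, at 0.90 for Pgd at 3 ppm (limma adjusted p = 0.073) and 0.77, 0.69 and 0.58 for Tkt at 0.5, 3 and 10 ppm (limma adjusted p = 0.077, 0.069 and 0.30).

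**Figure D3:**
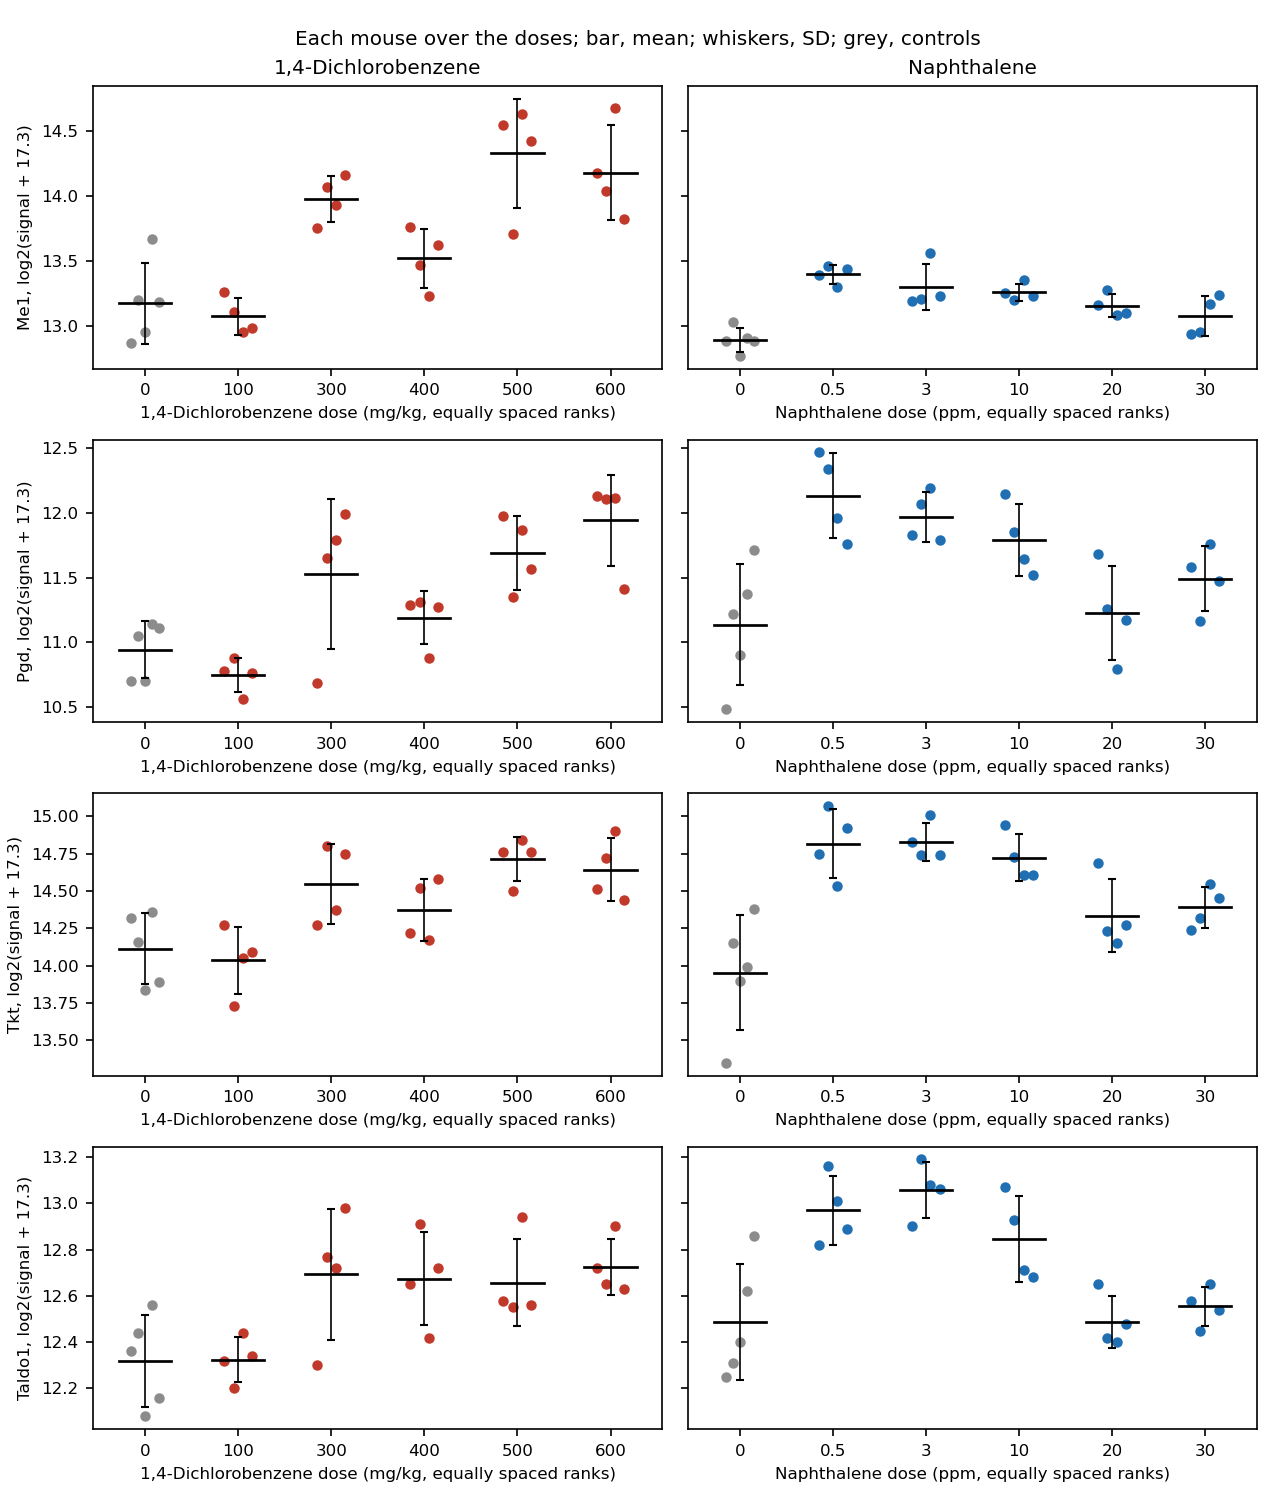
Log2(signal + 17.3) of Me1, Pgd, Tkt and Taldo1 for each mouse over the doses of 1,4-dichlorobenzene (left, mg/kg) and naphthalene (right, ppm), at equally spaced ranks, with bars for means, whiskers for the SD and grey controls. Means of Me1 and Pgd were highest at 500 and 600 mg/kg 1,4-dichlorobenzene, while those of Pgd, Tkt and Taldo1 were highest at 0.5 or 3 ppm naphthalene.

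The genes around the members also differed in naphthalene. At 0.5 ppm 2 of 19 NRF2 targets rose, Gstm1 (1.53-fold, limma adjusted p = 0.0024) and Gstm3 (2.07-fold, limma adjusted p = 0.013), with a median of 0.27 beside -0.06 over all genes. There 4 of 16 lipogenic genes rose, with a median of 0.56: Fasn, fatty acid synthase (2.30-fold, limma adjusted p = 0.0091), Thrsp (3.05-fold, limma adjusted p = 0.025), Acly, ATP citrate lyase (1.91-fold, limma adjusted p = 0.027), and Pklr (1.63-fold, limma adjusted p = 0.027). At 20 ppm Gstm3 (2.60-fold, limma adjusted p = 0.0038) was the only NRF2 target called. NADPH users rose in 3 of 12 at 0.5 ppm, Fasn, the cholesterol enzyme Dhcr7 (1.93-fold, limma adjusted p = 0.031) and the mitochondrial thioredoxin reductase Txnrd2 (1.64-fold, limma adjusted p = 0.0014). At 3 ppm 0 of 16 lipogenic genes rose, and Nnt, the mitochondrial transhydrogenase that makes NADPH from NADH, fell 1.68-fold (limma adjusted p = 0.00010). Nnt also fell at 0.5 ppm (1.60-fold, limma adjusted p = 0.00070), where Mthfd1, a cytosolic folate enzyme, rose 1.56-fold (limma adjusted p = 0.0012).

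Of 7 hepatocyte markers 3 rose at 0.5 ppm, Apoa2 (1.61-fold, limma adjusted p = 0.0057), Alb (1.59-fold, limma adjusted p = 0.0091) and Ttr (1.52-fold, limma adjusted p = 0.011). Their summed signal was 394 to 613 at 0.5 ppm, 447 to 495 at 3 ppm, 423 to 505 at 10 ppm, 412 to 465 at 20 ppm and 319 to 391 at 30 ppm, against 293 to 373 in controls, in units of 1000 signal. At 0.5 ppm the pancreas gene Cpb1 rose 1.92-fold (limma adjusted p = 0.022), and at 3 ppm the bile duct gene Epcam fell 2.83-fold (limma adjusted p = 0.0042). Sums lay below the controls for lymphocyte markers at 10 ppm, for macrophage markers at 20 and 30 ppm and for bile duct markers at 20 ppm. The part of these markers in the members' differences was not tested. In whole liver, fewer cells of a type and less RNA per cell cannot be told apart.

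**Figure D4:**
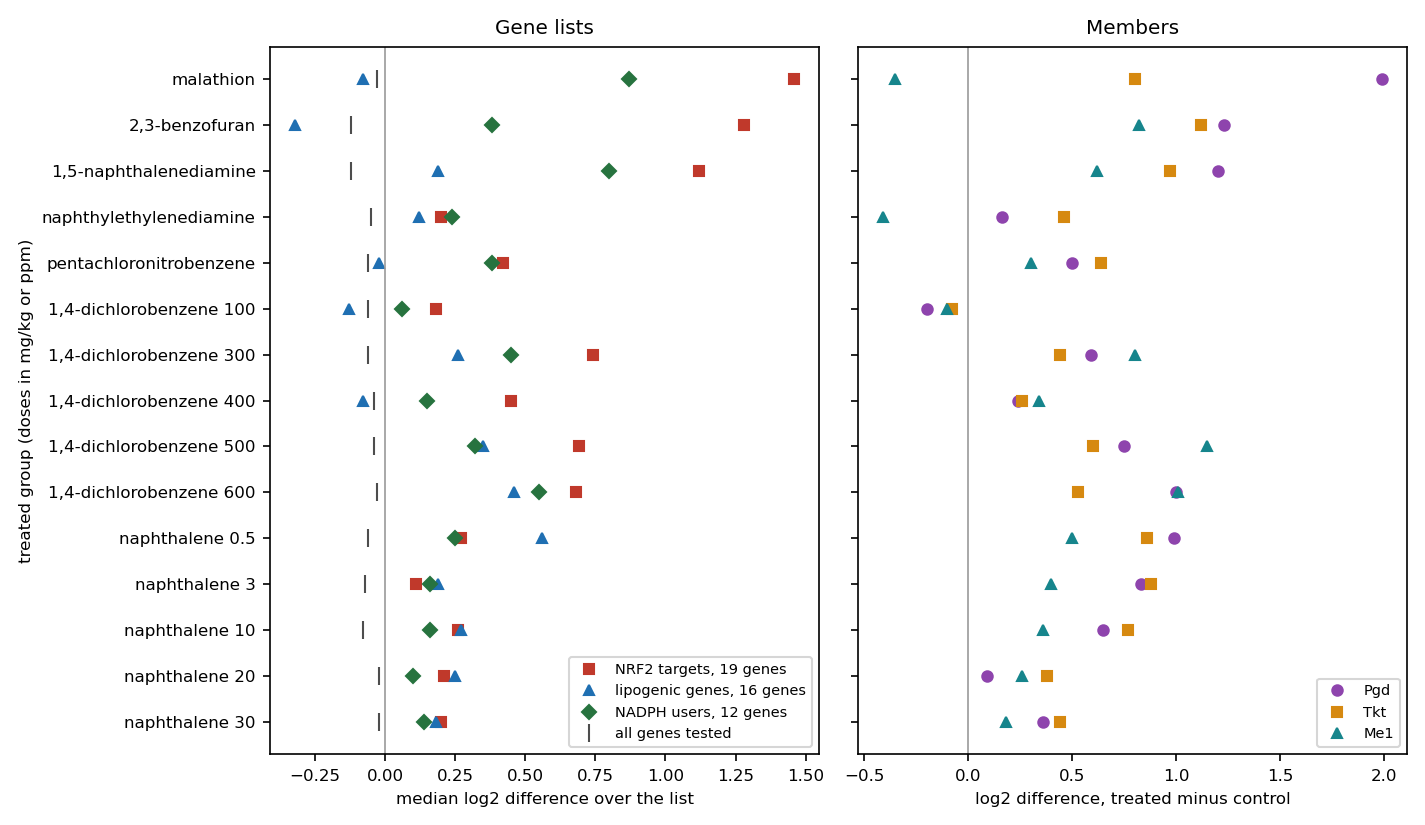
Left, the median log2 difference of NRF2 targets (19 genes), lipogenic genes (16), NADPH users (12) and all genes tested, in 15 treated groups. Right, the log2 difference of Pgd, Tkt and Me1 in the same groups; NRF2 medians are at 1.12 or above in malathion, 2,3-benzofuran and 1,5-naphthalenediamine, and between 0.11 and 0.27 in naphthalene.

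The other members varied less. H6pd, which makes NADPH inside the endoplasmic reticulum, ranged from -0.40 to 0.52 over the 46 groups (median 0.00), and its highest values were with both naphthyl amines, 0.52 ± 0.19 each (limma adjusted p = 0.15 and 0.20). Taldo1 ranged from -0.29 to 0.57 (median 0.08). Rpia, ribose 5-phosphate isomerase, ranged from -0.44 to 0.47 (median -0.01). Rpe, ribulose phosphate epimerase, was lower by value in 33 of 46 groups (median -0.16), from -0.74 in N-(1-naphthyl)ethylenediamine dihydrochloride (limma adjusted p = 0.18) to 0.66 in tetrafluoroethylene. Idh1 ranged from -0.34 to 0.42 (median 0.08). These 5 genes had an unadjusted p under 0.05 in 4, 11, 2, 2 and 6 of 46 groups, in the order H6pd, Taldo1, Rpia, Rpe and Idh1. Per group, 361 (vanadium pentoxide) to 4221 (naphthalene at 3 ppm) of all 18193 genes had such a p.

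In the 36 groups with no member called, 30 of 288 member tests had an unadjusted p under 0.05. Over all 18193 genes, 361 (vanadium pentoxide) to 3553 (methylene chloride at 3000 ppm) had such a p per group. The member count is therefore not read as a result about the members. Between control sets of 1 run and vehicle, 0 of 40 member tests were called by limma, 5 had an unadjusted p under 0.05, and 0.0429% of all genes' tests were called. Per pair of control sets, 893 to 2257 of the 18193 genes had an unadjusted p under 0.05. The largest control difference was that of Me1 between the 2 sets labelled distilled water, CCO3 and WCO1, -0.97 ± 0.36 (limma adjusted p = 0.77), as large as several called rises of Me1 but in run A, where its standard error was larger. The titles of CCO3 carry a code of the kind used for corn oil sets, so its vehicle is uncertain. In CCO3, 1 mouse had Me1 at 10.29 and the other 3 at 11.42 to 12.00. SDs within control sets ran from 0.09 to 0.76 for Me1, 0.01 to 0.67 for Pgd and 0.07 to 0.45 for Tkt.

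Other probe sets of the called members had the same sign in every called comparison apart from Tkt's dim probe set 1436605_at, which was at -0.28 with naphthalene at 0.5 ppm and -0.44 with pentachloronitrobenzene. The 4 Pgd probe sets were at 1.54 to 2.08 in malathion, 0.50 to 1.26 in 2,3-benzofuran and 0.36 to 0.83 in naphthalene at 3 ppm. The 2 Me1 probe sets were at 0.82 and 1.06 in 2,3-benzofuran and at 1.19 and 1.53 in the 1,4-dichlorobenzene trend. The median gene differed by -0.12 in both 2,3-benzofuran and 1,5-naphthalenediamine. With quantile normalisation, which gives the arrays of a run the same distribution of values, Pgd was at 1.13 and 1.09 in these groups.

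Across the 242 arrays, centred on their run, Pgd and Tkt correlated at 0.73 (0.66 to 0.92 within the 4 runs). Pgd and Me1 correlated at 0.22 over all arrays, from -0.20 in run A to 0.83 in run C. The genes most like Pgd were Hfe (0.79), Krt8 (0.78) and Lgals1 (0.76), and those most like Tkt were C1qbp (0.76), Selenbp1 (0.75) and Gstm1 (0.74). For Me1 they were Cyb5r3 (0.63), Gpam (0.62) and Gbe1 (0.61), for Taldo1 Tecr (0.77), Ndufab1 (0.74) and Rnh1 (0.74), and for Idh1 Cyb5b (0.81), Cnbp (0.79) and 4931406C07Rik (0.77). These are Pearson coefficients given as a description, since the arrays share groups, RNA quality and scaling.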

How the data were processed

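What the authors deposited is 1 linear intensity per probe set of each 1-colour array, with GCOS 1.0 named per the submitters' processing notes. Further steps, detection calls and a genome build are not given in the sources used here. A trimmed mean (2% cut from both tails) of 500 was found in 240 of 242 arrays, and the other 2 were multiplied up to it. Of 45101 probe sets, 34945 had exactly 1 symbol. For each of 18193 genes the probe set with the highest mean was kept, and log2 was taken after adding 17.3 (the typical array's 20th percentile), which understates changes of dim genes. The number of arrays limits the precision, and a brighter probe set is measured with less error.

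Each run had its own limma fit (version 3.58.1, R 4.3.3, lmFit and eBayes) on every array in it, groups as terms and, in run A, run codes as an additive block. Tests were two-sided, with Benjamini-Hochberg adjustment over all genes. Which control set serves which chemical is not in the labels, so sets of 1 run and vehicle were assigned by the order of animal numbers. The fit was tested on simulated data. By title each replicate is a mouse of its own. The p-values set a difference against the spread between mice within groups, taken over all groups of the run and moderated across genes. Differences between whole groups that are not due to the chemical do not enter this spread. The members, gene lists and markers were chosen with earlier results of these data known. Named genes are the members in every comparison, then, where a member was called, up to 4 called genes per list by smallest adjusted p, then the 3 genes most correlated with a member. Alternatives changed the normalisation, scaling, pseudocount, filter, probe set, controls, covariates and arrays. Plots were drawn with matplotlib 3.10.9, and tables with pandas 2.3.3 and numpy 2.4.6 in Python 3.11.15.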

Additional observations from a re-analysis of the deposited data

Results flagged for a closer look

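Of 432 sets of 4 or 5 mice per member and group, 16 held 1 mouse far from the others by Dixon's 95% criterion, where chance alone flags about 1 in 20. In groups with a called member these were Pgd at 600 mg/kg 1,4-dichlorobenzene (replicate 4 at 11.41, the others 12.11 to 12.13), Taldo1 at 500 mg/kg (replicate 3 at 12.94, the others 12.55 to 12.58), Rpia at 3 ppm naphthalene (replicate 2 at 8.28, the others 8.77 to 8.85), Rpe at 0.5 ppm (replicate 3 at 10.19, the others 9.71 to 9.73) and Me1 at 3 ppm (replicate 3 at 13.56, the others 13.19 to 13.23). At 400 mg/kg 1,4-dichlorobenzene, Pgd replicate 3 was at 10.88 and the others at 11.27 to 11.31.

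In Me1 the others were 1,2-dibromoethane replicate 3 (11.42), 2-chloromethylpyridine hydrochloride replicate 2 (12.10), tetrafluororethane replicate 2 (12.67) and replicate 4 of the air control set ACO1 (12.54). In H6pd they were corn oil control set CCO2 replicate 1 (12.68) and replicate 1 at 25 ppm (11.78) and replicate 5 at 800 ppm (12.88) of propylene glycol mono-t-butyl ether. In Taldo1 they were ethylene oxide replicate 4 (12.40) and tetrafluoroethylene replicate 2 (12.45), and in Idh1 chow control set FCO2 replicate 1 (14.27).

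By a test of the difference itself, 1,5-naphthalenediamine was above N-(1-naphthyl)ethylenediamine dihydrochloride by 1.03 in Me1 and 1.04 in Pgd.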

How the results depend on the processing

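Member calls over the treated groups numbered 17, and became 8 with values as deposited, where the 2 unscaled arrays enter as they are, 4 with each pair of groups fitted alone, where fewer arrays estimate the spread, and 11 with RNA integrity as a covariate (chosen after seeing the data). Also chosen after seeing the data were malathion without its 2 arrays of low RNA integrity (17 calls) and naphthalene against the other 2 air control sets (18 calls). Leaving out 1 array gave 14 to 19. The 2 calls between the naphthyl amines became 0 with values as deposited and 0 with the 2 groups alone, and were 1 to 2 with 1 array left out. The 3 trend calls stayed 3 with any 1 control array left out (dosed arrays were not left out), and the count over the dosed groups alone was also 3, with Tkt in 1,4-dichlorobenzene lost and the fall of Pgd in naphthalene gained. Control sets gave 0 calls in each alternative run on them. None of the called member differences, the ones recomputed under each alternative, changed sign. Trends that were not called were not followed in this way, and that of Tkt in naphthalene was at 0.09 with controls and at -0.54 over the dosed groups alone. Quantile normalisation lost Me1 in 2,3-benzofuran (0.78, limma adjusted p = 0.056) and Tkt in pentachloronitrobenzene (0.56, limma adjusted p = 0.067) and naphthalene at 10 ppm (0.59, limma adjusted p = 0.058). The mean of all probe sets lost Tkt in pentachloronitrobenzene and the 3 naphthalene groups and Pgd at 3 ppm naphthalene. Pooling control sets gave 21 calls, the added ones being Me1 and Tkt at 3000 ppm methylene chloride, Pgd at 10 ppm naphthalene and Tkt at 500 mg/kg 1,4-dichlorobenzene. No paired analysis was possible because the labels number animals and give no replicate numbers shared between groups. The cause of each change was not tested unless stated.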

Other observations

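In tetrafluoroethylene and tetrafluororethane the air controls of set ACO1 were uneven in several members. Rpe was 8.77, 8.16 and 8.57 in 3 of these controls and 10.38 in the other, and Idh1 was 13.84, 13.40, 13.11 and 14.31. H6pd was 13.44, 13.92 and 13.51 in the same 3 mice and 12.76 in the other. Rpe in the tetrafluoroethylene mice was 9.12, 10.39, 10.13 and 8.90, overlapping these controls. Coumarin gave the lowest Me1 difference, -0.67, with mice at 11.96, 12.75, 10.63 and 11.78 against 11.84, 12.72, 12.07 and 13.16 in controls.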
